A study of Mus musculus with 22 samples.

Results

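The genes examined here are those that write, copy and remove DNA methylation in the mouse: Dnmt1, Dnmt3a, Dnmt3b, Dnmt3l, Uhrf1, Tet1, Tet2 and Tet3. They were chosen by name, as the probes that carry 1 of these 8 gene symbols in the array files and are not control spots, and this gave 14 probes of 41174 and 8 genes of 28103. Gene expression had been measured on 22 one-colour Agilent mouse arrays, with 1 array per group. Primordial germ cells (PGCs), the embryonic precursors of eggs and sperm, were followed as they turned into embryonic germ cells (EGCs), which are pluripotent like embryonic stem cells (ESCs).

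The time course held uncultured PGCs from E11.5 embryos, a culture at day 1 with bFGF, cultures at days 2, 3 and 6 with bFGF, 2i and A83-01, a culture at day 10 whose additions the title does not give, and an EGC line derived from E11.5 PGCs. Here 2i stands for PD325901 (1 µM), which inhibits MEK, together with CHIR99021 (3 µM), which inhibits GSK3, and A83-01 (250 nM) inhibits activin and TGF-beta type I receptors. A second set of PGC cultures, all of day 2, had bFGF as the only addition or bFGF plus PD325901, CHIR99021, A83-01, 4-hydroxytamoxifen (4OHT, 100 nM) or 2i, A83-01 and 4OHT together. The labels give 4OHT as the means of activating AKT and name no transgene. An ESC line stood beside them, and the third set was EBRTcH3, an ESC line, as parental cells or with forced expression of Prdm14, Vasa, Nanos2, Nanos3, Dnd, GFP or Blimp-1. The GFP and Blimp-1 cells were taken at day 2 and carried an EF1a promoter with an IRES-GFP cassette. The medium common to all was Knockout DMEM with KSR and LIF. PGCs, their cultures, ESCs and EGCs were sorted as SSEA-1 positive, cells with constructs were sorted as GFP positive, and for parental EBRTcH3 no sort is stated. Strain and sex were not given in the sources used here.

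DNA methylation is set by Dnmt3a and Dnmt3b, which methylate new sites, helped by Dnmt3l, a relative without enzyme activity of its own. Dnmt1 copies the pattern to the new strand at replication, guided by Uhrf1, which binds DNA methylated on a single strand. Tet1, Tet2 and Tet3 oxidise methylcytosine, the first step of active removal. PGCs lose most of their genomic methylation as they reach the gonad, and ESCs are known for high levels of the de novo enzymes, of Dnmt3l and of Tet1 and Tet2.

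The probes of Dnmt1 and Dnmt3a are shown because each maps to a span longer than itself, so that its letters come from separate stretches of the genome, as in spliced RNA. The Dnmt1 probe maps to chr9:20711973-20712341 (mm9, minus strand), a span of 369 bases for a probe of 60. The Dnmt3a probe maps to chr12:3906868-3907649 (mm9, plus strand), a span of 782 bases.
Dnmt1 probe: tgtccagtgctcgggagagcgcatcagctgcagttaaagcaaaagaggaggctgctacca
Dnmt3a probe: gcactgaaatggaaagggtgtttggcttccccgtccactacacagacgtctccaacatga
The probe for Dnmt3b maps to chr2:153513083-153513142 and that for Dnmt3l to chr10:77526112-77526171, both on the plus strand of mm9. Uhrf1 was read at chr17:56462657-56462716 (plus strand), Tet1 at chr10:62276042-62276101, Tet2 at chr3:133129158-133129217 and Tet3 at chr6:83312763-83312822 (the last 3 on the minus strand).

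The upstream stretches of Dnmt3b and Dnmt3l are shown because these genes varied most over the arrays. Each is the 250 bases before the annotated start of the gene's first listed start, from RefSeq on GRCm38.p6, with every CG dinucleotide, the site of methylation, in capitals. The Dnmt3b stretch is chr2:153649199-153649448 and the Dnmt3l stretch chr10:78042037-78042286, both on the plus strand.
Dnmt3b upstream: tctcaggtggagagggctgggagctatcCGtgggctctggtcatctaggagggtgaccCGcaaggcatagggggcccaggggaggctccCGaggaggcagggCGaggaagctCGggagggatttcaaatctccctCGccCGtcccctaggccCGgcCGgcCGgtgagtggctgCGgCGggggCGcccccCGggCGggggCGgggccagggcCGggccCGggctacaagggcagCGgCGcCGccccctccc
Dnmt3l upstream: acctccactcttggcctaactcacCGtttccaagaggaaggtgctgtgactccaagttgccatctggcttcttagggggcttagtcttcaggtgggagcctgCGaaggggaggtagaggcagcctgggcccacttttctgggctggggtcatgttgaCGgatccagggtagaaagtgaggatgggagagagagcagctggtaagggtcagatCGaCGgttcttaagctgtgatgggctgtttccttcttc
The Dnmt3b stretch held 21 CG dinucleotides and the Dnmt3l stretch 5, where the median over 32851 such stretches of the mouse genome was 6. Other annotated starts of Dnmt3l, not shown, held 4 and 3. The start shown is the one at the lowest coordinate, and which start the cells of these arrays use was not tested. A GC box, searched as GGGCGG on both strands, occurred 3 times before Dnmt3b and not before the first Dnmt3l start, and 32.7% of all stretches held at least 1. Before the Dnmt3l start with 4 CG dinucleotides it occurred 2 times. All 8 genes matched, with 15 starts in all, and the CG count ranged from 2 before 1 start of Dnmt1 to 51 before Tet2.

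Values are given as a level, the log2 of a probe's intensity minus the log2 of its array's 75th percentile, so that 0 is the brightness that 75% of probes do not reach. A level of 1 array has no replicate error, and the only error is the scanner software's own. That error was about 0.14 for bright probes, so a difference between 2 bright arrays carries an error of about 0.20. Levels are compared within a probe and never between genes. In a sorted but bulk sample, fewer cells of a type and less RNA per cell cannot be told apart.

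Arrays differed in brightness. The 75th percentile was at an intensity of 124 where 2i, A83-01 and 4OHT were combined, at 196 on parental EBRTcH3 and on Blimp-1, at 207 on uncultured PGCs and between 228 and 782 on the others, and 44.3% to 64.7% of probes were well above background. Both arrays with 4OHT lay on a slide of their own. Summed over 8 germ cell markers, intensity in units of the array's 75th percentile was 104.9 in uncultured PGCs and 25.2 to 38.6 in the lines, and over 7 pluripotency markers it was 56.1 and 139.6 to 337.6. For 12 fibroblast markers the sum was 78.7 to 374.6 in the 9 cultures of days 1 to 3, 39.7 to 60.7 in the 3 lines and 33.4 in uncultured PGCs. The 78.7, with 2i, A83-01 and 4OHT, came mostly from Vim (5.26) and Acta2 (5.14), with Col1a1 and Col3a1 at -2.67 and -2.14. Dcn, a collagen-binding proteoglycan of connective tissue, was at 0.06 in uncultured PGCs and at 7.12 at day 2 with 2i and A83-01, its highest level of all arrays. With 2i, A83-01 and 4OHT it was at 0.19, and in the ESC line at 0.32. Lum, Thy1 and Acta2, of the same list, were lower at day 2 with 2i and A83-01 than in uncultured PGCs. The forced genes were checked on their own arrays: Nanos3 was at 2.65 on the array labelled Nanos3 and between -3.20 and -0.34 on the other 7 EBRTcH3 arrays. Ddx4 (Vasa), Nanos2, Dnd1 and Prdm1 (Blimp-1) were not highest on the arrays labelled for them, and no probe was matched to Prdm14. Whether those probes read the introduced sequence was not tested.

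The time course followed these genes as PGCs became EGCs. Over all 22 arrays Dnmt3l had the widest range of the 8 genes, 11.2 on the log2 scale, and Dnmt3b the next, 7.34. Dnmt3l was not well above background in uncultured PGCs, at -4.01, and stood at -2.85 at day 1, -3.63 at day 2, 1.90 at day 3, 4.80 at day 6, 5.03 at day 10 and 6.34 in the EGC line. The step from day 2 to day 3, both with 2i and A83-01, was 46.3-fold (log2 5.53, scanner error 0.23; log2 4.42 with normexp), and from day 3 to day 6 it was 7.45-fold. The day 2 and day 3 arrays lay on different slides. This day 2 array was also the lowest of 7 day 2 cultures in various media, which ranged from -3.63 to 1.85. On the time course arrays alone, levels lay in a low set up to day 2, and a high set from day 6, with day 3 between.

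Dnmt3b was at -2.81 in uncultured PGCs, -1.50 at day 1, -0.93 at day 2, 0.68 at day 3, 2.38 at day 6, 2.94 at day 10 and 3.22 in the EGC line. Every array was higher than the one before, in contrast to Dnmt3l, which dipped at day 2. Dnmt3a took another course, at 0.53, 0.96, 0.44, -0.49, 1.14, 2.47 and 3.19 over the same 7 arrays, with its lowest level at day 3. Between day 2 and day 3 Dnmt3b was 3.05-fold higher at day 3, and Dnmt3a differed by less than 2-fold.

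Among the maintenance genes, Uhrf1 was at 1.68 in uncultured PGCs, 2.79, 3.35, 3.63, 4.48 and 4.66 at days 1, 2, 3, 6 and 10, and 4.85 in the EGC line. Each array was higher than the one before. Dnmt1 was at -0.95 in uncultured PGCs and 0.80, 0.97, 0.16, 0.14 and 0.36 at days 1 to 10. It was 3.36-fold higher at day 1 than before culture and showed no further 2-fold step. The median of all genes differed by -0.48 between those arrays, from different slides.

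Of the erasers, Tet2 was not well above background in uncultured PGCs, at -5.31, and stood at -3.49, -3.82, -3.78, -1.84 and -1.48 at days 1, 2, 3, 6 and 10. Tet1 was at -0.45 before culture and at -0.10, -0.49, -0.94, 0.10 and 1.15 on the same days. From day 6 on, Tet2 was above all earlier arrays and so was Tet1. Tet3 was highest at day 1, at -1.98, and lowest before culture and at day 10, at -3.56 and -3.49.

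**Figure D1:**
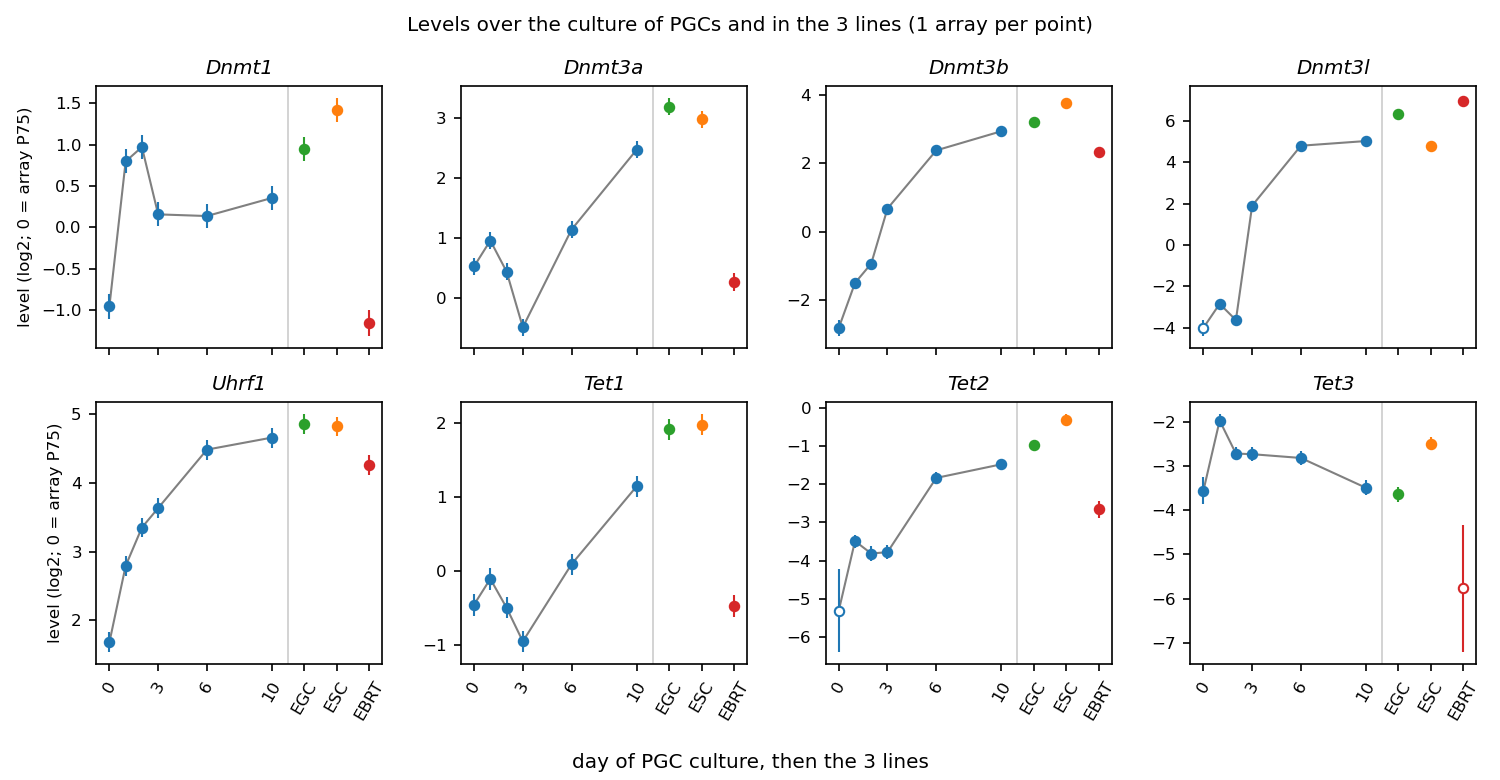
Level of each gene (log2, with 0 at the array's 75th percentile) over days of PGC culture (blue, joined by a line) and in the EGC (green), ESC (orange) and parental EBRTcH3 (red, marked EBRT) lines. Each point is 1 array, bars are the scanner's error, and open points were not well above background. Dnmt3l goes from -3.63 at day 2 to 4.80 at day 6, while Dnmt1 stays between 0.14 and 0.97 from day 1 to day 10.

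A change of at least 2-fold between consecutive arrays was used as a size to count, without a test. From uncultured PGCs to day 1, 4 of 8 genes were higher (15.7% of 17190 genes were) and none lower. These were Dnmt1, Dnmt3b (2.49-fold), Uhrf1 (2.16-fold) and Tet3 (2.99-fold), though the Tet3 difference was -0.020 with another background correction (normexp). From day 1 to day 2 none of the 8 differed by 2-fold, where 8.79% of all genes did. From day 2 to day 3, 2 of 8 were higher (3.45% of genes), and from day 3 to day 6, on 1 slide, 5 of 8 were higher (12.3% of genes). Those 5 were Dnmt3a (3.09-fold), Dnmt3b (3.26-fold), Dnmt3l, Tet1 (2.06-fold) and Tet2 (3.84-fold). From day 6 to day 10, Dnmt3a (2.51-fold) and Tet1 (2.07-fold) were higher, 2 of 8 where 8.28% of genes were. From day 10 to the EGC line only Dnmt3l was, by 2.48-fold, with 5.64% of genes higher. No member was 2-fold lower at any of these 6 steps.

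A straight line was fitted to the 6 arrays from uncultured PGCs to day 10, as a slope per doubling of day + 1. No gene of 19045 passed a limma adjusted p of 0.05, and none of the 8 members did, where 0% of genes were called and 2347 had an unadjusted p under 0.05. Of the members, 4 of 8 had an unadjusted limma p under 0.05 with a slope above 0 (5.7% of genes did). The member slopes were 1.79 (SE 0.18) for Dnmt3b, 3.08 (SE 0.57) for Dnmt3l, 0.88 (SE 0.14) for Uhrf1 and 1.07 (SE 0.20) for Tet2, and their limma adjusted p-values were 0.0537, 0.139, 0.107 and 0.139. Those of the other 4 genes were 0.551 or more. The time trend therefore did not pass the test, and medium and slide changed along with the day.

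The ends of the course were compared in the same way. In uncultured PGCs, Dnmt3b was 60.9-fold lower than the mean of the ESC, EGC and parental EBRTcH3 lines, at -2.81 against 3.11 ± 0.72 (SD, n = 3), a log2 difference of -5.93 (-4.34 with normexp). Dnmt3l, dim in PGCs, was at least 851-fold lower than the lines' mean of 6.03 ± 1.13 (SD, n = 3), and Tet2, also dim, at least 5.22-fold lower. Both bounds set the PGC level at -3.71, the smallest level of any probe that passed the background call on that array. They are not detection limits of these probes and hold only for the background correction used here. Uhrf1 was 7.77-fold lower. No gene of 18956 passed at a limma adjusted p of 0.05 and so no member did, where 0% of all genes were called and 1864 had an unadjusted p under 0.05. Of the members, 4 of 8 were lower at an unadjusted limma p under 0.05 (3.82% of genes were). The limma adjusted p was 0.147 for Dnmt3b and Dnmt3l, 0.258 for Uhrf1 and 0.292 for Tet2. The PGC array is here assumed to vary like the lines, and with 1 array against 3 the absence of calls does not show that levels were alike. That array was the only one on its slide, so slide and stage cannot be told apart. Of 8 blood genes, 6 had higher measured values on it than the lines' mean and 2 lower. Hbb-bh1 differed by 10.80 (log2), Hbb-y by 9.85, Hba-x by 8.99 and Alas2 by 4.63, and Laptm5 by -6.82. The same array starts the time course, and the part of blood RNA in the members' levels on it was not tested.

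The stage comparison with the most arrays set the 9 PGC cultures of days 1 to 3, in every medium, against the 3 lines. Here 6 of 8 genes were lower in the cultures at a limma adjusted p under 0.05, and none higher, where 10.6% of 20864 genes were lower and 20.1% were called in either direction. The median of all genes was -0.20 (log2). The p-values measure only the spread between these arrays, and the cultures differ in medium and day. No slide held both a culture and a line, so slide and stage cannot be told apart.

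Dnmt3b, a de novo enzyme, lay between -1.50 and 0.68 in the cultures (median -0.81) and at 3.77, 3.22 and 2.34 in the ESC, EGC and parental EBRTcH3 lines. All cultures were below all lines. The mean difference was -3.78 (SE 0.43, a 13.7-fold lower level, limma adjusted p 0.000116). Dnmt3l, its helper, was between -3.63 and 1.90 in the cultures (median -0.24) and at 4.77, 6.34 and 6.97 in the lines, again without overlap. Its difference was -6.58 (SE 1.15, 95.4-fold, limma adjusted p 0.00184). Dnmt3a was between -0.54 and 0.96 (median -0.31) in the cultures against 2.98 in ESCs, 3.19 in EGCs and 0.26 in parental EBRTcH3. The last lay inside the culture range. The difference was -2.19 (SE 0.55, limma adjusted p 0.0137), and it no longer passed without the ESC or the EGC array.

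Uhrf1, which guides maintenance, was between 2.79 and 3.91 in the cultures (median 3.52) and at 4.82, 4.85 and 4.25 in the lines. The groups did not overlap, and the difference was -1.24 (SE 0.27, limma adjusted p 0.00721). Dnmt1 was between -0.59 and 0.97 in the cultures and at 1.42, 0.94 and -1.16 in the lines, so that the lines spanned the cultures. Its difference of -0.22 (SE 0.53, limma adjusted p 0.841) did not pass.

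Tet2 was between -4.93 and -3.34 in the cultures, where 6 of 9 arrays were well above background, and at -0.31, -0.99 and -2.66 in the lines. The measured culture values lay below those of the lines. On the dimmest of the 3 dim cultures, though, a level had to reach -2.64 to be well above background, which is above the parental line's -2.66, so a full separation is not established. The difference was -2.73 (SE 0.46, limma adjusted p 0.00135), with the 3 dim cultures entered at their measured values. Tet1, between -1.38 and -0.10 in the cultures, was at 1.98 in ESCs, 1.92 in EGCs and -0.47 in parental EBRTcH3. The last lay within the cultures, and the difference was -1.72 (SE 0.46, limma adjusted p 0.02). Tet3 was at -4.90 to -1.98 in the cultures and at -2.50, -3.64 and -5.77 in the lines, with 1 culture and the parental line not well above background. Its difference of 0.80 (SE 0.66, limma adjusted p 0.457), taken over the measured values, did not pass.

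At the measured values the groups did not overlap for 4 of the 8 genes, with the cultures lower (8.49% of genes were lower without overlap). These were Dnmt3b, Dnmt3l, Uhrf1 and Tet2, and for Tet2 dim values leave the separation unsettled. Dnmt3b and Dnmt3l passed under all 20 alternative settings and omissions. Uhrf1 did not pass with normexp, with quantile normalization or with slide as a random block (limma adjusted p up to 0.107), Tet2 did not with normexp (0.0845), and Tet1 did not with the slide block or without the ESC or EGC array (up to 0.114). Fibroblast markers were higher in the same cultures, with 5 of 12 called higher and 1, Thy1, lower (Dcn 6.19, SE 1.38, limma adjusted p 0.00734, with 2 of 3 lines well above background). Their part in the members' difference was not tested. Without the 3 dimmest arrays of this comparison (both 4OHT cultures and parental EBRTcH3), an omission chosen after seeing the data, 6 members passed and 7510 genes did, and Dnmt3l was at -6.73 and Dnmt3b at -4.17.

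**Figure D2:**
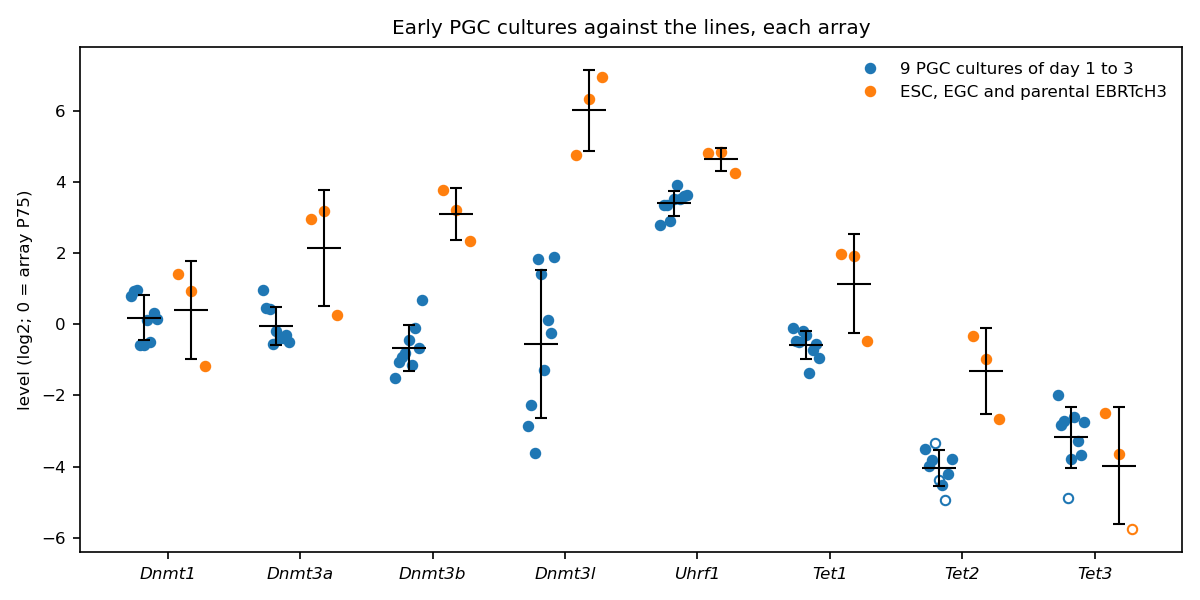
Level of each gene (log2, with 0 at the array's 75th percentile) in the 9 PGC cultures of days 1 to 3 (blue) and in the ESC, EGC and parental EBRTcH3 lines (orange), 1 point per array, in the order ESC, EGC, EBRTcH3. Black bars are means with the SD, and open points were not well above background. Dnmt3b, Dnmt3l and Uhrf1 show no overlap between the groups, Tet2 shows none at its measured values, and for Dnmt1 the lines span the cultures.

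For Dnmt3a, Uhrf1 and Tet2, probes of 1 gene differed in the same direction, though not always by the same size. The 3 Dnmt3a probes differed by -2.19, -2.59 and -1.40 between cultures and lines, the 2 Uhrf1 probes by -1.24 and -1.43, and the 2 Tet2 probes by -2.73 and -2.12. Not all were bright: the last Dnmt3a probe was well above background in 7 of 9 cultures and 2 of 3 lines. The last Tet2 probe was so in 3 of 9 cultures and 2 of 3 lines. From day 3 to day 6, the 3 Dnmt3a probes differed by 1.63, 2.93 and 1.00. For Tet3 the probes disagreed in direction, at 0.80, 0.36 and -0.09, and the last was not well above background on any array. Tet3 values therefore rest on its brightest probe.

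**Figure D3:**
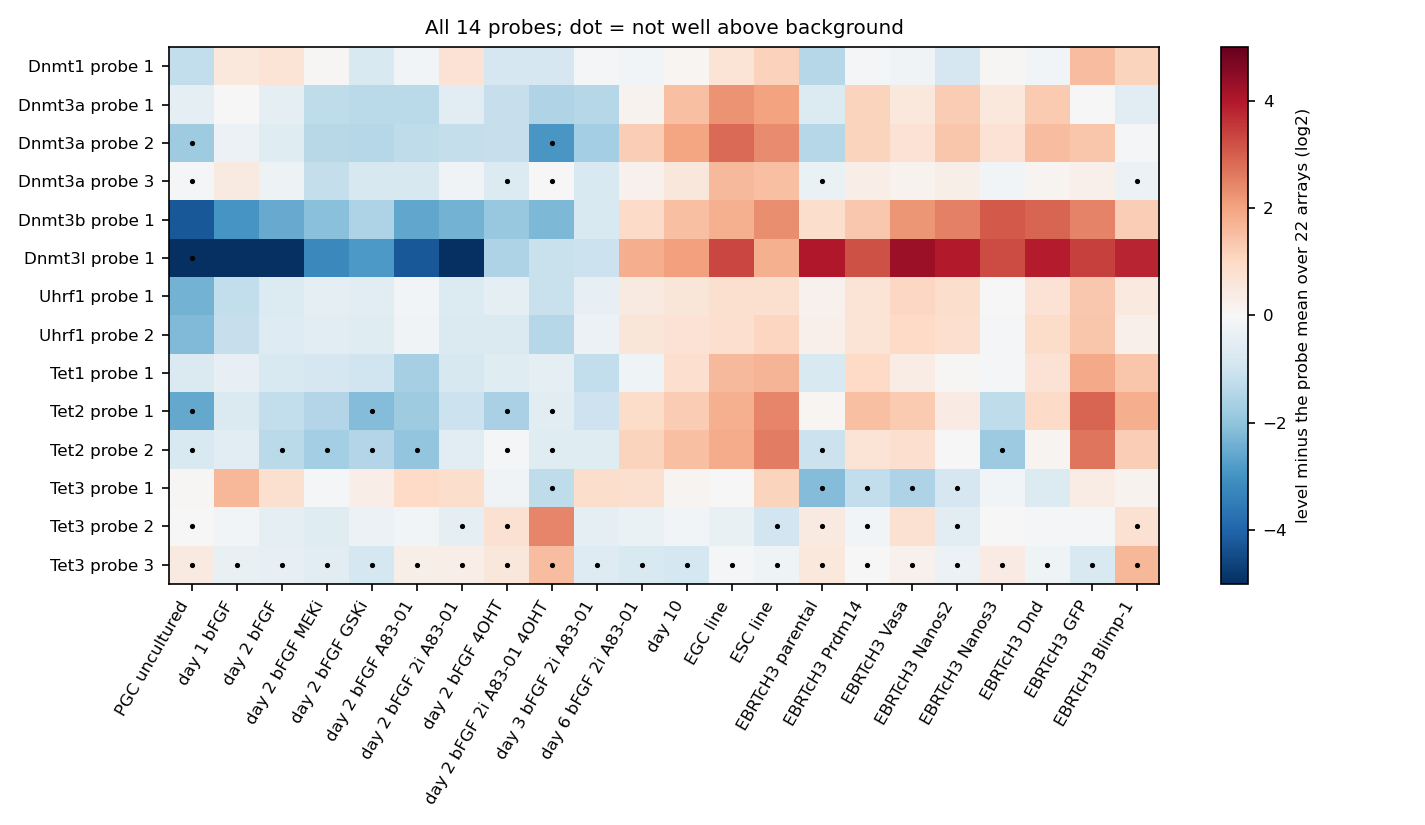
Level of all 14 probes on the 22 arrays, each minus the probe's mean over the arrays (log2; red higher, blue lower, colours capped at 5 on either side). Dots mark probes not well above background. The Dnmt3b and Dnmt3l rows change from blue to red between day 3 and day 6, and the Dnmt3a, Uhrf1 and Tet2 probes of 1 gene show like patterns.

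Partners of the pathway were read from lists, beside 10.6% of all genes called lower and 9.56% called higher in this comparison and an all-gene median of -0.20. Shares near these are no result about a list. Of 10 partners of maintenance, 5 were lower in the cultures than in the lines and none higher, with a median of -0.90. They were Zfp57, a zinc finger protein that keeps imprints methylated (-2.72, SE 0.31, limma adjusted p 0.000113), Usp7, a deubiquitinase (-1.46), Cdca7 (-1.45) and Hells (-0.93), which remodel chromatin together, and Trim28 (-1.26), a corepressor. The other 5 did not pass.

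Of 16 genes of demethylation and base repair, 4 were called lower and none higher. They were Tdg (-1.20), Mbd4 (-0.83) and Neil2, DNA glycosylases, and Ogt (-1.08), a glycosyltransferase that binds Tet proteins. Neil2 was not well above background in any of the 9 cultures and was so in 1 of 3 lines, so it gives only a bound, at least 1.32-fold lower. The median was -0.76. Of 7 readers of methylated DNA, 3 were higher, Mbd1 by 2.29 (SE 0.52, limma adjusted p 0.00828), Zbtb4 by 1.65 and Mbd2 by 1.17, and none was lower. Of 10 genes of methyl donor supply, Mthfd1 (-1.40), Ahcy (-1.38) and Gldc (-1.49) were lower, and all 10 had negative values. Ahcy clears the product of methylation, and Gldc is a glycine cleavage enzyme of ESCs.

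Of 23 replication genes, which serve as a measure of cycling, 7 were lower and Ccne2 was higher (0.80). The lower ones included Ccne1 (-1.66), a cyclin, and Mcm2 (-0.88), a helicase subunit, and the list's median was -0.67. All 7 pluripotency genes measured were lower, from Tdgf1 (-3.96) to Klf4 (-1.60). Of 14 germline genes whose promoters are methylated in somatic cells, Dazl (2.89) and Asz1 were called higher and Hormad1 (-1.69) and Taf7l (-2.45) lower, with 10 not passing. Asz1 was well above background in 1 of 3 lines, and no size is given for it. Of the 2 known repressors of the de novo enzymes measured, Prdm1 (-1.61) and Tfap2c (-1.23) did not pass. Of 8 germ cell markers, 1 (Dazl) was higher. Of 10 gonadal markers, Lhx9 and Sox9 were called higher, and Lhx9 was not well above background in any line (at least 3.05-fold higher). Of 6 blood genes, Laptm5 was called lower, with 2 of 9 cultures well above background. Of 4 endothelial genes, Tek and Cdh5 were called lower. Tek was well above background in 3 of 9 cultures and Cdh5 in none, with 1 of 3 lines above for Cdh5 (at least 1.45-fold lower).

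EGCs and ESCs were compared on 1 array each, with no test. Dnmt3a, Dnmt3b, Uhrf1, Tet1, Tet2 and Dnmt1 differed by less than 2-fold. Dnmt3l was 2.97-fold higher in EGCs (6.34 against 4.77) and Tet3 was 2.21-fold lower (-3.64 against -2.50). The other 2 Tet3 probes differed by 0.60 and 0.10, against -1.14 for this one. Of 8 genes, 1 was higher where 12% of all genes were, and 1 lower where 7.04% were.

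The day 2 cultures addressed the effect of each addition. Dnmt3l had the widest range of the 8 genes over these 7 arrays, 5.48 on the log2 scale. It was at -2.26 with bFGF alone, -0.24 with PD325901, 0.11 with CHIR99021, -1.27 with A83-01, -3.63 with 2i and A83-01, 1.42 with 4OHT and 1.85 with 2i, A83-01 and 4OHT. Single additions thus gave higher values than bFGF alone, while 2i with A83-01 gave the lowest.

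Against bFGF alone, Dnmt3l was 4.06-fold higher with PD325901, 5.18-fold higher with CHIR99021, 1.98-fold higher with A83-01, 2.58-fold lower with 2i and A83-01 (1.64-fold with normexp), 12.8-fold higher with 4OHT and 17.3-fold higher with all additions, the last 4.67-fold with normexp. The scanner error of each log2 difference was 0.21 to 0.24. The array with bFGF alone and that with 2i and A83-01 shared a slide, and the 3 with single inhibitors shared another. These slides shared no group, so slide and addition cannot be told apart for single inhibitors or for 4OHT.

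Dnmt1 was at 0.93 with bFGF alone, 0.31, -0.49 and 0.12 with PD325901, CHIR99021 and A83-01, 0.97 with 2i and A83-01, -0.59 with 4OHT and -0.58 with all. It was 2.67-fold lower with CHIR99021 and 2.86-fold lower with 4OHT. Dnmt3b ranged from -1.14 with A83-01 to -0.10 with CHIR99021, and was 1.95-fold higher with the latter than with bFGF alone. Dnmt3a ranged from -0.54 to 0.46, Uhrf1 from 2.92 to 3.91 and Tet1 from -1.38 with A83-01 to -0.19. Tet2 and Tet3 were near the background, with Tet2 well above it on 4 of 7 arrays and Tet3 on 6.

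Counting 2-fold differences from bFGF alone, 1 of 8 was higher with PD325901 (6.37% of genes), 1 higher and 1 lower with CHIR99021 (11.6% and 6.87%), none with A83-01 (13% either way), 1 lower with 2i and A83-01 (1.91%), 1 higher and 1 lower with 4OHT (26.4% and 11.2%) and 1 higher and 2 lower with all additions (35.3% and 15.1%). The genes were Dnmt3l, Dnmt1 and, with all additions, Dnmt3a (2.00-fold lower). Set against 2i and A83-01 without 4OHT, all additions gave 44.6-fold higher Dnmt3l (7.66-fold with normexp) and 2.92-fold lower Dnmt1, 1 of 8 higher (36% of genes) and 1 lower (15.2%). Set against 4OHT alone, none of the 7 members measured differed by 2-fold (13.5% of genes did). Shares near those of all genes are no result about the members.

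A fit with 4 additive terms over the 7 arrays called no gene of 19095 for any term (0%), at 616, 881, 703 and 8895 genes with an unadjusted p under 0.05 for PD325901, CHIR99021, A83-01 and 4OHT. With 4OHT the median of all genes was 0.58. Dnmt3l was at 3.19 (SE 1.12, limma adjusted p 0.0942) and Tet3 at -1.28 (SE 0.41, limma adjusted p 0.0804) for 4OHT, and neither passed. Dnmt3l passed with normexp (2.06, limma adjusted p 0.000485), without the filter on dim genes (0.0367) and with slide as a term (4.58, 1.03e-15, with 1 residual degree of freedom). That term marked only the slide of the 3 single inhibitors, so it could not separate 4OHT from the slide of its own. Tet3 passed without the filter (0.0391) and with that slide term (0.00179), and its direction turned with normexp (1.07) and with the mean over probes (0.62). They were the members under an unadjusted p of 0.05, 1 of 8 higher (33.5% of genes) and 1 lower (13.1%). The arrays with 4OHT had a 75th percentile at 253 and 124, and their fibroblast marker medians were -0.52 and -2.41, against 3.33 with bFGF alone. The part of brightness and of these markers was not tested. In the same fit all 8 germ cell markers had values below 0 for A83-01 and above 0 for CHIR99021. Of 7 pluripotency markers, 5 were below 0 and 2 above for A83-01, and 5 above and 2 below for CHIR99021. None of these passed, and their part in the members' levels was not tested.

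**Figure D4:**
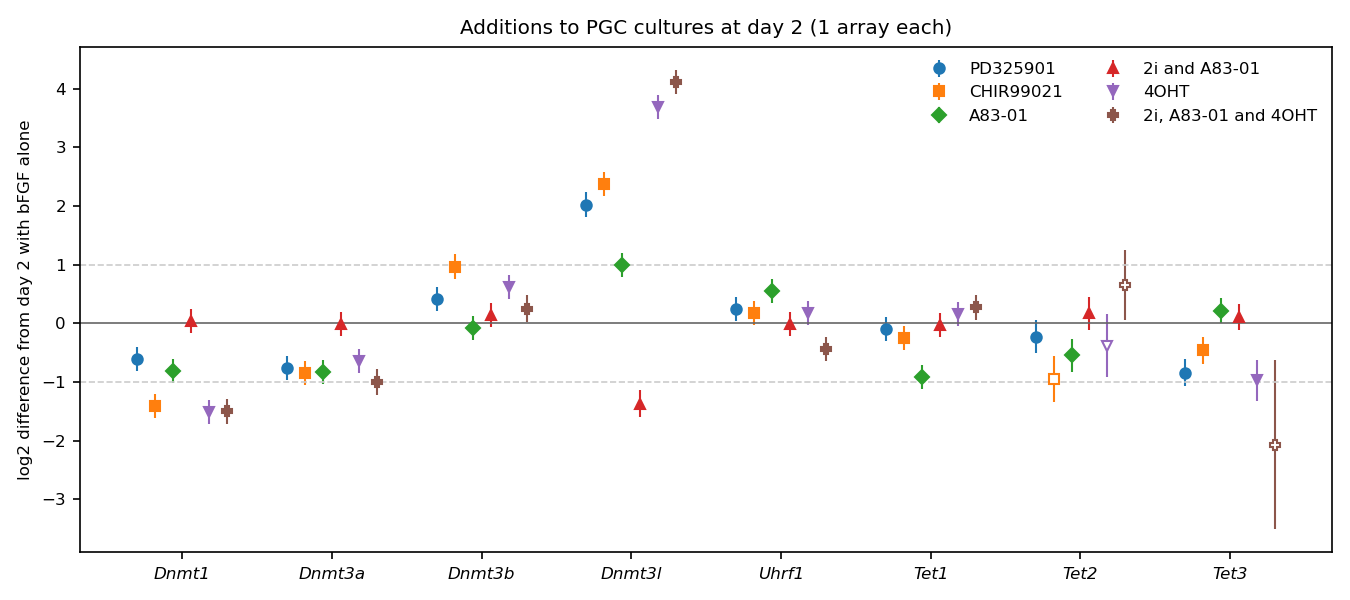
Log2 difference of each gene from the day 2 culture with bFGF alone, by addition, 1 array each, with bars for the combined scanner error and dashed lines at 2-fold. Open symbols were not well above background on 1 or both arrays. Dnmt3l reaches 4.11 with all additions and is at -1.37 with 2i and A83-01, and Uhrf1 stays within 2-fold.

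The third set asked what forced germ cell genes do in ESCs. In the 8 EBRTcH3 arrays Dnmt3l was at 6.15 to 7.24 (median 6.85) and Dnmt3b at 2.34 to 4.52 (median 3.77). Dnmt3l had the smallest spread of the 8 genes, 0.39 (SD over 8 arrays), and Tet2 the largest, 1.26. In sequence, parental, Prdm14, Vasa, Nanos2, Nanos3, Dnd, GFP and Blimp-1, the Dnmt3b levels were 2.34, 2.80, 3.64, 3.97, 4.52, 4.34, 3.91 and 2.67. The parental array was lowest for Dnmt1, Dnmt3a, Dnmt3b and Tet1, and it was also among the dimmest.

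Against the parental array, 4 of 8 genes were at least 2-fold higher on the array labelled Prdm14 (12.1% of genes), 5 on Vasa (8.3%), 2 on Nanos2 (8.6%), 3 on Nanos3 (13.2%), 4 on Dnd (9.9%) and 5 on GFP (12.4%), and Tet2 alone was lower, on Nanos3 (23.8%). The GFP control, with no germ cell gene, had Dnmt1 7.77-fold and Tet2 7.03-fold higher than the parental array. Set against this control, the array labelled Blimp-1 had lower Dnmt3b (2.36-fold) and Tet2 (2.12-fold), 2 of 8 where 4.33% of genes were lower.

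Each construct was then tested with limma against the arrays that shared its slide. The construct is an arm of 1 array, the spread comes from the other EBRTcH3 arrays around their slide means, and the slide of Nanos2, Nanos3 and Dnd held no control array. None called a member, where 0% of 19269 genes were called for 5 constructs and 0.0104% for Dnd, and 428 to 1765 genes had an unadjusted p under 0.05. The 2 genes called for Dnd, named here after their values were seen, were B230303O12Rik (7.29, SE 0.57) and an unnamed probe. Tet2 had an unadjusted p under 0.05 on the array labelled Nanos3, at -4.05 there and -2.37 and -1.79 on the slide's other arrays, with a log2 difference of -1.97 (SE 0.74, limma adjusted p 0.501), 1 of 8 lower where 4.75% of genes were. No other member came under 0.05 unadjusted for any of the 6 constructs. Dnmt3l, the next smallest, was at -0.96 (SE 0.45, limma adjusted p 0.717) on Prdm14.

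**Figure D5:**
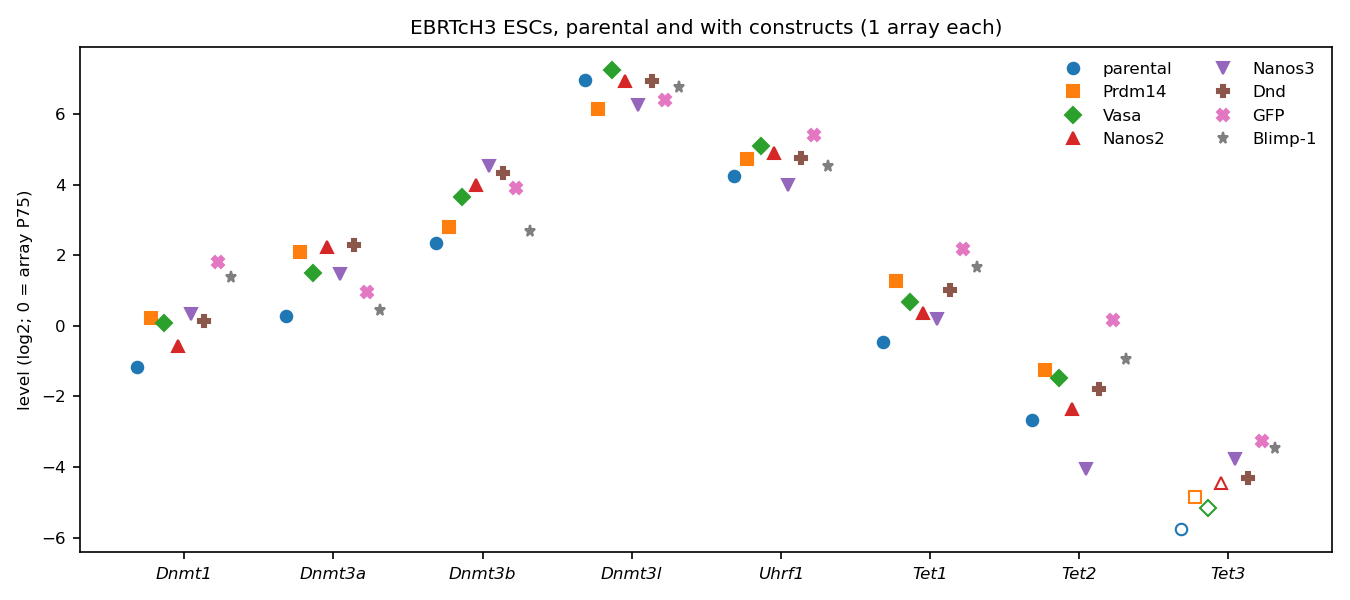
Level of each gene (log2, with 0 at the array's 75th percentile) on the 8 EBRTcH3 arrays, 1 symbol per array; open symbols were not well above background. Dnmt3l lies between 6.15 and 7.24, and the parental array is the lowest for Dnmt1, Dnmt3a, Dnmt3b and Tet1.

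The genes whose centred levels came closest to each member over the 22 arrays were searched among 13281 genes, by root mean square difference (RMS). For Dnmt3l they were Stmn2 (RMS 1.20) and Glod5 (1.27), against its own SD of 3.87, and for Dnmt3b Pnma2 (0.75) and Tcfl5 (0.82), against 2.26. Stmn2 was at -7.10 to -2.17 in the early cultures and at 0.89 to 1.43 in the lines. Dnmt3a came closest to Radil and Olfm1 (0.46 and 0.57), Uhrf1 to Gpd2 and Frrs1 (0.30 and 0.33), Tet1 to Jarid2 and Baz2a (0.38 and 0.40), Tet2 to Kat6b and Dusp27 (0.54 and 0.65) and Tet3 to Tcf12 and Lpin2 (0.41 and 0.44). Dnmt1 came closest to Srrm2 (0.21, own SD 0.77). The genes share the arrays and their brightness, and the likeness is a description.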

How the data were processed

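The deposited spot values are intensities of 1 colour that the authors made with Agilent Feature Extraction 10.7.3.1, per the file headers, background-subtracted and not normalized between arrays, with probes annotated on mm9. A second deposited table of intensities, with 1 column per array, served as an alternative. From the deposited intensities, outlier spots were left out, repeat spots averaged, and the log2 of each array's 75th percentile subtracted. Probes were named by RefSeq accession (27015), symbol (5016), synonym (798) or the name in the file (8345). The probe with the highest mean level stood for a gene. A fit tested the genes that the scanner software called well above background on 1 or more of its arrays, with limma 3.58.1 in R 4.3.3 (two-sided, Benjamini-Hochberg over all genes tested, adjusted p under 0.05). Each fit was tested on simulated data with 200 genes changed and independent noise, without slide effects. The real data differ in both respects, so the recovered shares are not the power of the real fits. In these simulations the fit of uncultured PGCs against the lines recovered none of the changed genes. Of genes changed by log2 2, the early cultures against the lines recovered 49.25%. The trend recovered 0% of them, each day 2 term 1.49% and the constructs 1.49% to 7.46%. For the trend, the day 2 terms and the constructs, the absence of calls therefore does not show that levels were alike. Fits used measured values throughout. In differences between pairs of arrays, and where a whole group was dim, the dim level was replaced by the smallest one that passed the background call (or its own, if higher), giving "at least N-fold". The members and gene lists were chosen with earlier results of these data known. Genes named were the members, the list genes that passed (otherwise up to 3 with the largest differences), and the 2 nearest genes per member, of which 1 is not reported here. Nanog, Prdm14 and Rpl10l had no matched probe and are not analysed here.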

Additional observations from a re-analysis of the deposited data

Results flagged for a closer look

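The difference of 2i with A83-01 against its control moved in opposite directions for Dnmt3l with and without 4OHT. Without 4OHT it was -1.37 (scanner error 0.24) and with 4OHT it was 0.43 (scanner error 0.20), a change of 1.80 on the log2 scale. Each value rests on 1 array against 1 other on the same slide, and the difference between them was not tested. With normexp both were below 0, at -0.71 without and -0.90 with 4OHT, so the opposite directions were not kept under that background correction.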

How the results depend on the processing

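No paired analysis was possible because every group has 1 array. Over the 22 pairs of arrays, 53 of 176 member differences were at least 2-fold, and 43 to 63 were under the alternatives. Leaving out 1 array at a time, the early cultures against the lines called 2935 to 6051 genes and 4 to 6 members, uncultured PGCs against the lines called 0 to 529 genes and 0 to 2 members (529 without the ESC array, 261 without the EGC array, with 1 residual degree of freedom), and the trend called 0. With normexp, 66 genes and 1 member were called for PGCs, 1867 genes for the early cultures, 8698 genes and 3 members (Dnmt3l, Tet2 and Uhrf1 with 4OHT) for the day 2 additions and 5 genes for the constructs. With quantile normalization, 14 genes were called for the trend and 439 for the constructs. Without the filter on dim genes, 41 genes and 1 member (Dnmt3b) were called for the trend, 81 genes and 1 member (Dnmt3l) for PGCs, 15750 genes and 2 members (Dnmt3l and Tet3 with 4OHT) for day 2 and 4 genes for the constructs. The mean over probes called 3920 genes at day 2. With slide as a term, 12154 genes and 3 members (Dnmt1, Dnmt3l and Tet3 with 4OHT) were called at day 2 (1 residual degree of freedom), with slide as a random block 1873 genes for the early cultures, and without the slide block 316 for the constructs. The slide term at day 2 marked only the slide of the single inhibitors and not that of 4OHT. Adding the construct arrays to the lines called 9595 genes, and leaving out the 3 dimmest arrays, chosen after seeing the data, 7510. The cause was not tested. With normexp, Tet3 at day 1 minus uncultured PGCs was -0.020 in place of 1.58. Dnmt3l was well above background on 21, Tet2 on 18 and Tet3 on 17 of 22 arrays, and dim values are bounds.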
